A study of Mus musculus with 2 samples.

Results

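The muscleblind, CELF, quaking and KH-domain splicing regulators were examined as 9 listed genes, Mbnl1, Mbnl2, Mbnl3, Celf1, Celf2, Celf4, Qk, Khdrbs1 and Khdrbs3, out of 21403 gene symbols with RefSeq isoforms. Celf1 and Celf2 were formerly named Cugbp1 and Cugbp2. The genes were listed by name, with no threshold on a measured value, although earlier results of these data were known when the list was made. Their mouse gene spans held 177 of the 228333 exon trios in the splicing tables, and 123 of 145628 trios reached 20 reads in both libraries. A trio is an exon, or an alternative segment of one, together with the 2 exons that flank it.

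The RNA came from N2A cells, a mouse neuroblastoma line, cultured for 3 days after transfection. One library held RNA of cells given a control shRNA (shControl) and the other RNA of cells given the shRNA to Ptbp1 (shptbp1), both delivered with Lipofectamine. There was 1 library per group, so no difference below has a replicate check, and library-to-library variation and the knockdown cannot be told apart. Intervals cover counting error only.

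Muscleblind proteins (Mbnl) are zinc-finger RNA-binding proteins that switch exons during muscle and brain development. CELF proteins bind GU-rich RNA and often act on the same exons in the opposite direction. Quaking (Qk) and the Khdrbs proteins (Khdrbs1 is Sam68, Khdrbs3 is Slm2) are STAR-family KH-domain proteins, and Qk is best known from myelinating glia. Ptbp1, the pyrimidine-tract-binding protein depleted here, represses many neural exons from sites in the upstream intron. Several of these regulators are themselves alternatively spliced.

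The targeted gene was lower in the knockdown library. Ptbp1 had 140251 exon reads in control and 38117 in the knockdown, a log2 ratio of -1.56 (95% interval -1.58 to -1.55) after scaling to all exon reads of each library, 237387953 and 190637353. Its neural paralog Ptbp2 had 20820 and 38138 exon reads, a log2 ratio of 1.19 (1.17 to 1.21). Neuronal markers were present, with 4 of 7 measured genes above an RPKM of 1 (exon reads per kilobase of exon, scaled to library total) in control and 5 in the knockdown, and their summed level was 196.0 and 339.0 RPKM. The neurofilament genes Nefl and Nefm were at most 0.039 RPKM in both libraries. Of the 4 glial markers 1 exceeded 1 RPKM, and Aqp4 had 0 reads. No fibroblast, muscle or immune marker exceeded 1 RPKM. In bulk RNA, fewer cells of a type and less RNA per cell cannot be told apart.

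The largest difference among the cassette exons of these regulators was in Mbnl2. A 36-nt exon of Mbnl2 had a PSI (percent spliced in, relative to transcripts that skip it to the next exon) of 8.4 in control and 58.1 in the knockdown. Transcripts that join the exon before it directly to the last exon are not part of this PSI. The exon lies at chr14:120802558-120802593 (mm9, plus strand), between a 154-nt and a 95-nt exon, and no GENCODE M1 transcript contains it. Its length is a multiple of the codon length, with a remainder of 0. Mbnl1 has an exon of equal size at chr3:60425345-60425380 (plus strand), coding in 5 GENCODE transcripts. It is known from work on the human gene as the exon that promotes association of the protein with itself. The pair of 36-nt exons matched at 31 of 36 bases (86.1%). They are shown because the 2 paralogous exons started from opposite levels of inclusion.

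Mbnl2 36-nt exon: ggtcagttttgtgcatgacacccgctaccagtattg
Mbnl1 36-nt exon: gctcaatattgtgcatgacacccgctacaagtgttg

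The 100 nt of intron just upstream of each 36-nt exon are the window in which Ptbp1 motifs were counted. Capitals mark TCTT, TTCT or CTCT, which can overlap each other, on the transcribed strand. The windows are chr14:120802458-120802557 and chr3:60425245-60425344.

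Mbnl2 upstream of the 36-nt exon: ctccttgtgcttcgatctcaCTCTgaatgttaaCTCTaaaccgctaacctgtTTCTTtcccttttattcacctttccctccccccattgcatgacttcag
Mbnl1 upstream of the 36-nt exon: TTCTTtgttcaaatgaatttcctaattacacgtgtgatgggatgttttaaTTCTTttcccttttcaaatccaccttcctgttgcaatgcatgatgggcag

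Each window held 4 motif occurrences, and 39.9% of 6558 cassette exons held at least as many. The Mbnl2 window was 73.0% pyrimidine, reached by 4.04% of cassette exons. The Mbnl1 window was 61.0% pyrimidine, reached by 29.2%. The pair therefore had equal motif counts in this window and differed in pyrimidine content.

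The junction reads of the Mbnl2 36-nt trio moved in both directions. In control, 6 reads joined the 154-nt exon to the 36-nt exon, 5 joined the 36-nt exon to the 95-nt exon, and 89 skipped from the 154-nt to the 95-nt exon. In the knockdown library these counts were 65, 14 and 41. PSI from junction reads alone was 5.8% and 49.1%, a difference of 43.2 points (95% Newcombe interval 30.7 to 54.4). The inclusion junctions were uneven in the knockdown, with 65 and 14 reads, and the cause was not tested. With the larger of the 2 inclusion junctions in place of their mean the difference was 55.0 points (43.3 to 64.4). Only 31 of 6565 cassette exons (0.472%) had a delta PSI at least as large in this direction as its 49.7 points.

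**Figure D1:**
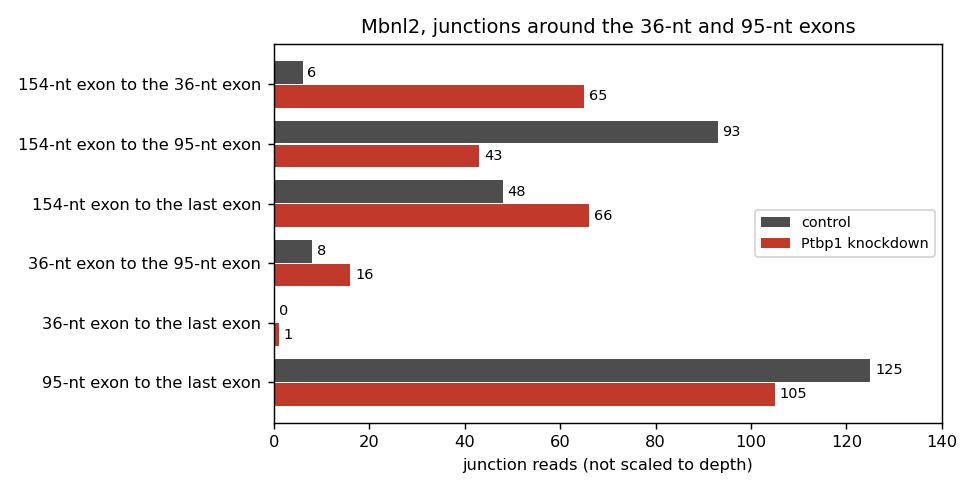
Reads across each splice junction (horizontal axis, raw junction reads, the largest count over trios, not scaled to depth) around the 36-nt and 95-nt exons of Mbnl2, in control (grey) and Ptbp1 knockdown (red), 1 library each. The junction from the 154-nt exon into the 36-nt exon had 6 and 65 reads, and the junction that bypasses it to the 95-nt exon had 93 and 43.

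Taking all reads that left the 154-nt exon, 147 in control and 174 in the knockdown, gave the choice among its 3 partners. The 36-nt exon took 4.08% (Wilson interval 1.88 to 8.62) and then 37.4% (30.5 to 44.7). The 95-nt exon took 63.3% (55.2 to 70.6) and then 24.7% (18.9 to 31.6). The last exon took 32.7% (25.6 to 40.6) and then 37.9% (31.1 to 45.3), a difference of 5.3 points whose interval of -5.2 to 15.5 includes 0. The 36-nt exon gained 33.3 points (25.1 to 41.0), and the 95-nt exon changed by -38.6 points (-47.9 to -28.0). No trio lists all 3 partners and a junction's count can differ between trios, so the largest count of each junction was taken in each library and these shares are approximate. The junction from the 154-nt to the 95-nt exon had 89 and 41 reads in the 36-nt trio and 93 and 43 in the trio of the 95-nt exon.

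The 95-nt exon of Mbnl2, at chr14:120803860-120803954, is coding in 3 GENCODE transcripts, and its length leaves a remainder of 2 when divided by the codon length. Its PSI was 67.1 in control and 49.9 in the knockdown, a delta PSI of -17.2. The trio had 93 upstream inclusion reads, 123 downstream inclusion reads and 46 skipping reads in control. The knockdown library had 43, 102 and 62. The junction PSI difference was -16.2 points (-27.0 to -5.0). This trio is bounded by the 154-nt exon, so transcripts that reach the 95-nt exon through the 36-nt exon are missing from its upstream junction. With the larger inclusion junction, which here is the one into the last exon, the PSI was 72.8 and 62.2. That difference was -10.6 points (-20.4 to -0.5), smaller than the difference by corrected ratio and in the same direction. The trios of the 36-nt and 95-nt exons share the reads from the 154-nt to the 95-nt exon, so their differences are not independent. Among reads leaving the 154-nt exon, the share that went straight to the last exon differed by 5.3 points (-5.2 to 15.5). A loss of the 95-nt exon from transcripts was therefore not established.

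A pair of Mbnl2 trios catalogued as constitutive also passed 5 points, and neither had a junction interval that excluded 0. The 154-nt exon went from a PSI of 99.9 to 80.0 on 0 and 3 skipping reads, with a junction difference of -5.8 points (-15.8 to 0.7). The 95-nt exon in its trio with the 36-nt exon went from 99.9 to 81.5 on 0 and 1 skipping reads. The other 11 constitutive trios of Mbnl2 stayed within 5 points.

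Mbnl1 and Mbnl2 also share a 54-nt exon, which in the human muscleblind proteins contributes to nuclear localization. It lies at chr3:60418605-60418658 in Mbnl1, where no GENCODE M1 transcript has it, and at chr14:120794934-120794987 in Mbnl2, where it is coding in 2 transcripts. The exons matched at 46 of 54 bases (85.2%) and are shown because their delta PSI values had opposite signs.

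Mbnl1 54-nt exon: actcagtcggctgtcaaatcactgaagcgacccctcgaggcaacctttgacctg
Mbnl2 54-nt exon: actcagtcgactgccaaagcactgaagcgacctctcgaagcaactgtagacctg

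In Mbnl2 the 54-nt exon had a PSI of 41.7 in control and 51.7 in the knockdown. Its inclusion junctions held 29 and 49 reads against 42 skipping reads in control, and 44 and 57 against 44 in the knockdown. The junction difference of 5.3 points had an interval of -9.4 to 19.6, so a change was not detectable at this depth. Cufflinks listed 2 RefSeq isoforms of Mbnl2 that differ by 1 exon, of 8 and 9 exons and of 4499 and 4553 nt. The 9-exon isoform took 35.5% of the RefSeq depth in control (Cufflinks bounds 27.4 to 43.6) and 44.3% in the knockdown (35.5 to 53.0), and these bounds overlap.

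In Mbnl1 the 54-nt exon had a PSI of 64.8 in control and 57.0 in the knockdown. The inclusion junctions held 108 and 192 reads against 72 skipping reads in control, and 76 and 164 against 79 in the knockdown. The junction difference was -7.3 points (-16.3 to 1.9). With the larger inclusion junction it was -5.2 points (-13.2 to 2.7), so neither 54-nt exon had an interval that excluded 0. Each 54-nt exon had 1 motif in its 100 nt upstream, and 89.1% of cassette exons had at least as many.

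The other Mbnl1 cassette exons had a high PSI in both libraries in the trio used, but a trio leaves out junctions to other exons. The 36-nt exon had a PSI of 87.1 and 92.7 in the trio that ends on a 75-nt exon, with 24 skipping reads in control and 13 in the knockdown. The junction difference of 6.8 points (-1.1 to 14.7) included 0, and its 2 constitutive trios differed by -0.6 and -0.2 points. The 95-nt exon of Mbnl1 at chr3:60426068-60426162, which matched the Mbnl2 95-nt exon at 81 of 95 bases (85.3%), had a PSI of 99.5 and 99.4. That trio is bounded by the 36-nt exon and had 1 skipping read in each library. By the largest counts over trios, 99 and 93 reads entered it from the 36-nt exon. From the 154-nt exon there were 24 and 22. Reads that bypassed it to the 75-nt exon numbered 55 and 27 from the 154-nt exon and 12 and 7 from the 36-nt exon. Full inclusion of this exon was therefore not shown. The unannotated 111-nt exon stayed at 99.9 in both libraries, with 0 skipping reads in each. Its inclusion junctions held 69 and 63 reads in control and 97 and 86 in the knockdown. The 171-nt exon before it received 464 and 423 reads from a 1049-nt exon alone. This PSI thus leaves many transcripts uncounted, and full inclusion was not shown. The 223-nt and 1049-nt forms of an exon in the 5′ part of the gene were at 96.4 and 93.1, and at 98.3 and 97.2. All 16 constitutive trios of Mbnl1 stayed within 5 points, between -2.0 and 3.0.

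**Figure D2:**
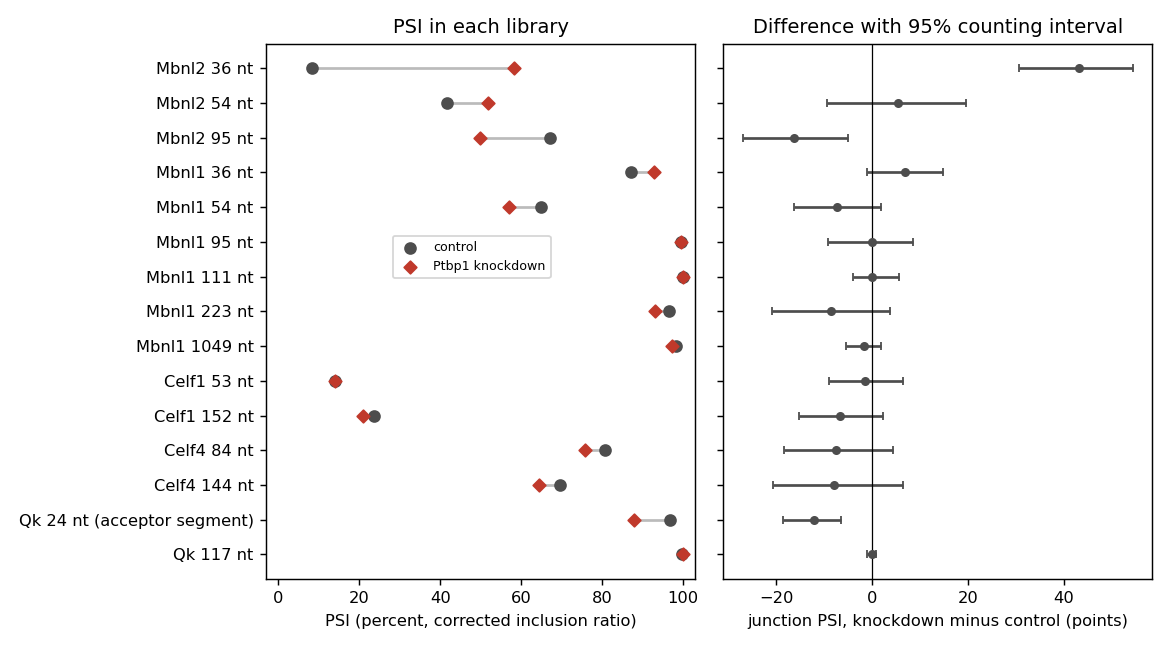
Left, PSI of the 14 cassette exons and of the Qk acceptor segment (horizontal axis, percent) in control (grey circles) and Ptbp1 knockdown (red diamonds), 1 library each. Right, the difference in junction PSI (points) with its 95% Newcombe interval, which lies wholly above 0 for the Mbnl2 36-nt exon and wholly below 0 for the Mbnl2 95-nt exon and the Qk segment.

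Celf1 encodes a GU-binding splicing and mRNA decay factor. Both of its cassette exons lie between the same 184-nt and 188-nt exons in the 5′ part of the gene, and GENCODE does not mark either as coding. The 53-nt exon had a PSI of 13.9 in control and differed by 0.1 points. The 152-nt exon had a PSI of 23.6 and 20.9, on 15 and 144 inclusion reads against 165 skipping reads in control and 13 and 76 against 128 in the knockdown. Its junction difference was -6.7 points (-15.2 to 2.2), and with the larger junction alone -9.3 points (-17.8 to -0.6). Cufflinks listed the 15-exon RefSeq isoform of Celf1, which is longer than the 14-exon isoform (2332 against 2180 nt), at 34.3% of RefSeq depth in control (29.5 to 39.0) and at 0 in the knockdown. The 76 reads on one junction of the 152-nt exon in the knockdown library remained beside that estimate of 0. Of the depth of all multi-exon isoforms listed at the locus, the 15-exon isoform took only 10.1% in control. An isoform that Cufflinks assembled took 54.1% in that library, so the RefSeq shares do not describe the whole gene. All 19 constitutive trios of Celf1 stayed between -0.2 and 0.3 points.

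Celf4, a CELF protein of neurons, carried many small differences on few reads. The 84-nt and 144-nt cassette exons share a splice site, so they are not independent of each other. Their PSI was 80.6 and 75.8 for the 84-nt exon, and 69.6 and 64.5 for the 144-nt exon. Both rest on the same 10 skipping reads in control and 23 in the knockdown. The junction intervals were -18.3 to 4.4 and -20.7 to 6.4 points. A pair of 3-nt acceptor segments differed by -9.4 and -12.6 points and a 30-nt donor segment by 12.6 points, each with an interval that included 0. One 81-nt constitutive exon went from a PSI of 60.2 to 99.9 on 2 and 0 skipping reads, a junction difference of 8.2 points (-4.1 to 25.4). The median trio of Celf4 held 266 and 281 reads, the fewest among the expressed genes of the list.

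Qk showed 1 acceptor switch whose interval excluded 0. A 24-nt segment at chr17:10409301-10409324 (minus strand), coding in 4 GENCODE transcripts, is the start of a 300-nt exon that can also begin 24 nt further downstream. Its sequence is shown in capitals after 40 nt of intron, because both alternative acceptors end in ag here, at the end of the intron and at the end of the segment (chr17:10409301-10409364).

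Qk acceptor segment: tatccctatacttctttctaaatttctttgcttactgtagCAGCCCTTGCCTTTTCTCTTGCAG

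The upstream acceptor had a PSI of 96.7 in control and 87.9 in the knockdown. Reads that joined the 88-nt exon to the downstream acceptor numbered 14 in control and 33 in the knockdown, although total reads on the trio were 1646 and 1001. The junction difference was -12.2 points (-18.5 to -6.4). Its inclusion side averages 58 and 39 splice reads with 454 and 275 reads that cross the unspliced boundary at the segment's end. With the larger count, which is that boundary, the difference was -7.7 points (-11.9 to -4.1). By the largest counts over trios, 464 and 256 reads joined the 88-nt exon to the upstream acceptor. The size of the difference therefore depended on the inclusion count used. The 100 nt upstream of the segment held 8 motifs, reached by 7.96% of cassette exons, and were 81.0% pyrimidine, reached by 0.778%. The motif count was the highest of the 15 windows searched. The segment was the 1 of 10 acceptor trios of these genes past 5 points with an interval excluding 0, and among all acceptor trios the share was 4.39%.

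The other Qk exons differed less. The 117-nt cassette exon was at 99.8 and 99.9, with 2 and 1 skipping reads. A 1280-nt acceptor segment in the 3′ part of the gene, listed in a pair of near-identical trios, had a PSI of 24.6 and 32.8 on 25 and 22 reads at its larger inclusion junction, with an interval of -8.9 to 16.0 points. Its 9 constitutive trios stayed between 0.0 and 4.2 points. The 8-exon RefSeq isoform took 85.0% of RefSeq depth in control (77.1 to 92.8) and 89.1% in the knockdown (79.5 to 98.7). Of the depth of all multi-exon isoforms listed at the locus, including those that Cufflinks assembled, it took 54.8% and 65.7%. Of the 2 isoforms of 7 exons with another 3′ end, the longer took 6.4% (5.45 to 7.35) and 10.9% (9.88 to 11.9), and the shorter was listed at 8.64% (7.39 to 9.9) and at 0. The junction into the last exon of that shorter isoform had 105 reads in control and 69 in the knockdown. An 836-nt exon that splices on to a 3161-nt exon uses the same acceptor. These reads are therefore not specific to the shorter isoform and cannot show whether it was present.

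Khdrbs1 had no cassette trio, and 10 of its 11 constitutive trios stayed within 5 points. One 81-nt exon downstream of the RefSeq 3′ end had a PSI that went from 48.7 to 99.9 on 6, 11 and 2 junction reads in control and 12, 2 and 0 in the knockdown. The junction difference of 19.0 points had an interval of -18.9 to 49.3, so this change was not detectable at this depth. Mbnl3, Celf2 and Khdrbs3 had no trio with 20 reads, out of 8, 35 and 10 listed.

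Over these genes 6 of 14 cassette exons (42.9%) passed 5 points, 3 higher and 3 lower, and among all 6565 cassette exons 30.7% did. By junction PSI 9 of 14 (64.3%) passed, 3 higher and 6 lower, against 31.8% of 6514 cassette exons, so the balance of directions depended on the measure. With an interval that excluded 0 as a further condition, 2 of 14 (14.3%) were left, against 14.9% of all cassette exons. The share with a counting interval was therefore near the background, and the 2 exons, both of Mbnl2, share junction reads. The median absolute delta PSI was 4.0 points for the 14 and 2.0 for all. Of all 123 trios, which share exons and reads, 17 (13.8%) passed 5 points against 5.39% of all trios, and 3 (2.44%) also had an interval that excluded 0 against 1.48%. Of the 94 constitutive trios 4 (4.26%) passed 5 points against 2.97% of all, none with an interval that excluded 0.

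**Figure D3:**
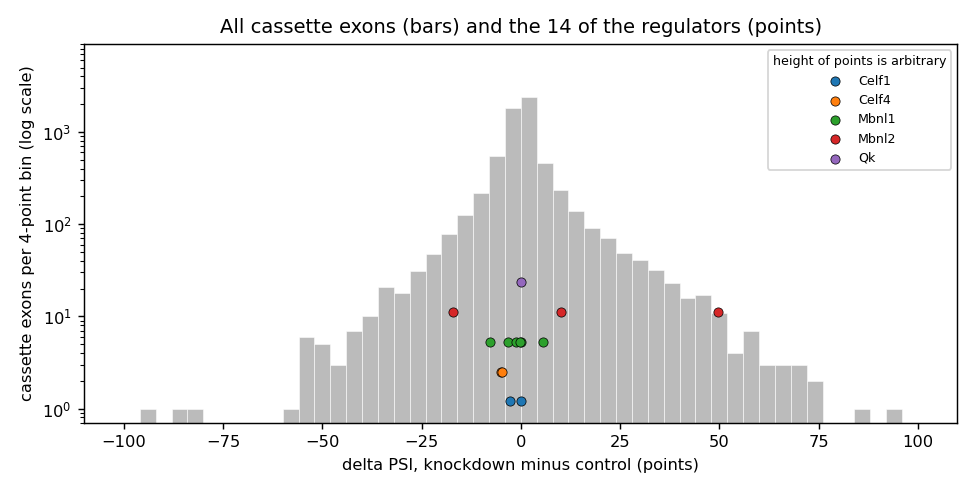
Delta PSI of all 6565 cassette exons with at least 20 reads in both libraries (bars, cassette exons per 4-point bin, log scale) and of the 14 exons of Mbnl1, Mbnl2, Celf1, Celf4 and Qk (points, whose height is arbitrary). The Mbnl2 36-nt exon stands at 49.7 points, and the other 13 lie between -17.2 and 10.0.

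The upstream windows of the 14 cassette exons held a median of 3 motifs in 100 nt, and so did those of all cassette exons. More than 3 motifs were found upstream of 6 of the 14. The window shared by the 2 Celf4 exons was 82.0% pyrimidine, reached by 0.701% of cassette exons, and held 3 motifs. A motif match is a description of these letters and no evidence of binding.

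Expression of the 9 genes fell into 6 that were well expressed and 3 that were not. By exon reads per length of exon, a measure added after the data were seen, Khdrbs1 had the highest level, with 91.8 RPKM in control and 108.0 in the knockdown. Celf1 followed with 39.8 and 28.8 RPKM. Mbnl1 (14.5 and 15.3 RPKM) and Qk (14 and 10.2 RPKM) were next to each other in control, and Celf4 (8.65 and 11.2 RPKM) passed Qk in the knockdown library. Mbnl2 had 5.68 and 6.89 RPKM, below Mbnl1 in both libraries. By mean depth per base on RefSeq isoforms the order differed. Khdrbs1 was again highest, but Mbnl1 (558 in control) and Qk (503) exceeded Celf1 (416), and Mbnl2 (261) exceeded Celf4 (164). This order leaves out isoforms that Cufflinks assembled. The deepest of these in control had a depth of 761 at Celf1, 182 at Qk and 131 at Mbnl1. Mbnl3 and Khdrbs3 had 0 reads in both libraries, which allows up to 0.0108 and 0.0135 RPKM for Mbnl3 and up to 0.00991 and 0.0123 RPKM for Khdrbs3. Celf2 had 4 exon reads in control and 0 in the knockdown, too few for a ratio.

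Qk and Celf1 were lower in the knockdown library. Qk had 32934 exon reads in control and 19285 in the knockdown, a log2 ratio of -0.46 (-0.48 to -0.43). Celf1 had 39294 and 22896 exon reads, a log2 ratio of -0.46 (-0.49 to -0.44). Of 11277 genes, 3.1% had a lower ratio than Qk and 3.0% a lower ratio than Celf1. The other 4 were at or above 0, with log2 ratios of 0.08 for Mbnl1, 0.23 for Khdrbs1, 0.28 for Mbnl2 and 0.37 for Celf4. The median of all genes was 0.171 on this scale, so relative to it Mbnl1 was at -0.09, Khdrbs1 at 0.06, Mbnl2 at 0.11, Celf4 at 0.20, and Celf1 and Qk at -0.63.

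None of the 6 expressed genes differed by 1.5-fold on RefSeq isoforms, where 30.4% of 10163 genes did, nor on exon reads, where 20% did. With the median of exon reads set to 0, Celf1 and Qk passed 1.5-fold, and 16.4% of all genes did. On RefSeq isoforms alone the log2 ratios were -0.39 for Celf1 (-0.65 to -0.11, from the outermost Cufflinks bounds) and -0.27 for Qk (-0.57 to 0.03). Adding the isoforms that Cufflinks assembled at each locus gave -0.59 and -0.48. The direction of both held under every measure of expression computed. The RefSeq ratios of the others were 0.26 for Mbnl1 (0.21 to 0.32), 0.28 for Mbnl2 (-0.23 to 0.77), 0.14 for Khdrbs1 (0.10 to 0.19) and -0.01 for Celf4 (-1.1 to 1.13). Celf4 thus changed sign between RefSeq isoforms and exon reads.

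**Figure D4:**
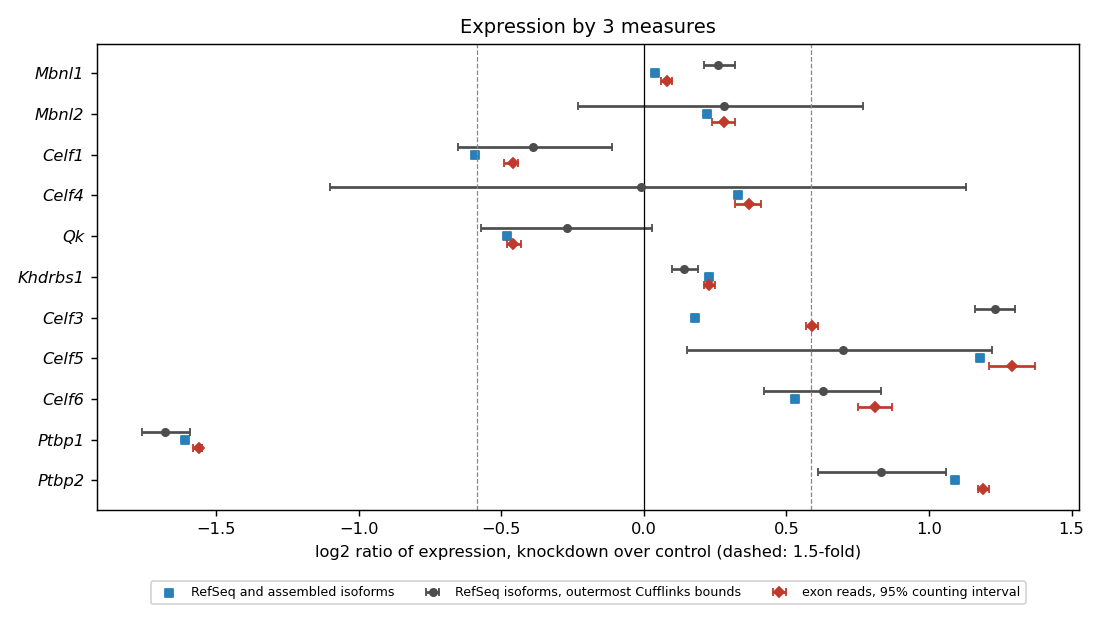
Log2 ratio of expression, knockdown over control (horizontal axis, dashed lines at 1.5-fold), for the 6 expressed regulators, the CELF paralogs Celf3, Celf5 and Celf6, and Ptbp1 and Ptbp2, by RefSeq isoforms (grey, outermost Cufflinks bounds), by RefSeq with assembled isoforms (blue squares) and by exon reads (red, 95% counting interval). Celf1 and Qk are below 0 and Celf5 and Celf6 above 0 by each of the 3 measures.

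A further 4 paralogs outside the list were examined beside these genes. Celf3, Celf5 and Celf6 are CELF proteins enriched in the nervous system, and Khdrbs2 (Slm1) is a neural relative of Sam68. Celf5 had 1826 exon reads in control and 3592 in the knockdown, a log2 ratio of 1.29 (1.21 to 1.37). Celf6 had 3672 and 5176, a log2 ratio of 0.81 (0.75 to 0.87). Celf3 had 36030 and 43592, a log2 ratio of 0.59 (0.57 to 0.61), but it was 1.23 on RefSeq isoforms and 0.18 with assembled isoforms, so its size depended on the measure. Khdrbs2 had 0 reads in both libraries. The 3 expressed paralogs had ratios above 0 by each measure, beside a higher Dbh, a noradrenergic marker (20.7 and 90.4 RPKM), and a lower Stmn2 (28.5 and 21.9 RPKM). The part of cell state in these differences was not tested.

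Genes known as splicing targets of these regulators were examined through a list chosen with earlier results of these data known. Of the 37 listed genes, 20 had a cassette exon with 20 reads in both libraries, 54 exons in all. Of these 25 (46.3%) passed 5 points, 18 higher and 7 lower, beside the 30.7% of all cassette exons. With an interval that excluded 0, 15 (27.8%) were left, beside 14.9%. The median absolute delta PSI was 3.9 points. Several of the 54 exons share a gene, as do the 6 of Mapt, so they are not independent of each other.

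The muscleblind target list supplied 39 exons, of which 21 (53.8%) passed 5 points. In Ndrg4 a 39-nt exon had a PSI of 5.6 in control and 46.7 in the knockdown, and the junction difference was 36.5 points (27.6 to 44.5). In Bin1, a membrane-curvature protein, a 93-nt exon went from 32.7 to 58.5, and in the tau gene Mapt an 87-nt exon went from 30.9 to 53.6.

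The Insr 36-nt exon, a classic muscleblind and CELF target, had a PSI of 9.5 and 6.8. The Nfix 123-nt exon was at 99.9 in both libraries, but on only 21 and 27 reads with 0 skipping reads. Its junction interval of -46.1 to 52.3 points could not show a change. The CELF list passed 5 points in 1 of 5 exons (Mef2a, a 24-nt exon at 11.8 and 20.4). Its junction difference of 5.6 points (-1.0 to 12.6) included 0, and with the larger inclusion junction it was 8.1 points (0.6 to 15.8). The Qk list passed 5 points in 1 of 3, on 1 skipping read in each library. The Khdrbs list did so in 2 of 7, both in Sgce. These are 35-nt and 71-nt forms that share 1 end, both flanking exons and the same 199 and 121 skipping reads, so they are not independent. The part of these regulators in the target exons was not tested.

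**Figure D5:**
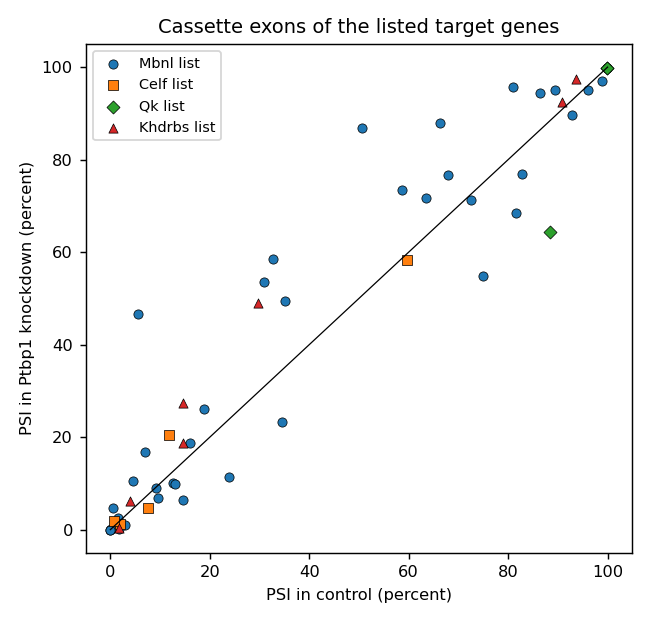
PSI in control (horizontal axis, percent) against PSI in Ptbp1 knockdown (vertical axis, percent) for the 54 cassette exons of the listed target genes, 1 library each, with the line of equality. Of the 54, 25 differ by at least 5 points, 18 of them above the line.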

How the data were processed

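Strand-specific paired-end RNA-seq of 2 N2A libraries (100-bp reads) was used. Per the submitters' processing notes the authors used CASAVA, TopHat and Cufflinks on mm9, and SpliceTrap for splicing, with versions not given in the sources used here. The deposited isoform tables hold coverage (a signal, mean depth per base) and FPKM per isoform, and the deposited splicing tables hold an inclusion ratio as a fraction, junction read counts and exon coverage. RefSeq identifiers were matched to symbols for 95.9% of RefSeq isoforms in each library. RefSeq isoforms held 60.4% of the coverage in control and 58.2% in the knockdown. Gene levels were coverage times length summed over RefSeq isoforms, scaled to their total, for genes with a mean of at least 100 reads. Exon reads, added after the data were seen, were summed over non-overlapping exons whose midpoint lay in the GENCODE M1 span. Reads that cross exons count in each, so exon-read intervals are too narrow. Trios needed 20 reads in both libraries. PSI was the corrected ratio times 100, and junction PSI was the mean of the inclusion junctions over that mean plus skipping reads, with 95% Wilson and Newcombe intervals. Ratios of exon reads had exact conditional binomial intervals. For an exon in several trios the trio with most reads was used. All member cassette exons were named, with other trios past 5 points whose interval excluded 0, and the 6 largest such target exons, apart from some that are not reported here. Other named values, including the partners of the Mbnl2 154-nt exon, Insr, Nfix, Mef2a and Sgce, were picked after their values were seen. A trio with 1 contiguous flank has 1 inclusion count across the boundary of adjoining segments. Sequences were read from NCBIM37 (mm9). Interval code was tested on simulated data. Python 3.11.15, pandas 2.3.3 and scipy 1.17.1 were used. The deposited gene-level FPKM tables were not used. The members and lists were chosen with earlier results of these data known.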

Additional observations from a re-analysis of the deposited data

How the results depend on the processing

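Of 45 recomputed values for single exons, from the uncorrected ratio, junction PSI and the larger inclusion junction, all moved by less than the half-width of their counting interval, and for the 7 exons past 5 points all 21 kept their direction. A threshold of 10 points left 3 of the 14 cassette exons, 9 of the 123 trios and 15 of the 54 target exons. Member genes past 1.5-fold numbered 1 (Celf1) with assembled isoforms and 2 (Celf1 and Qk) with exon reads and the median set to 0, and 0 under the other alternatives. The ratio of Khdrbs1 was -0.14 from isoform FPKM, which is scaled by isoform length. Its RefSeq isoform was listed at 2684 nt in control and at 3420 nt in the knockdown. The part of this length in the ratio was not tested. In 250 nt upstream, 3 of the 14 exons held more motifs than the median cassette exon, against 6 in 100 nt. No paired analysis was possible because each group had 1 library. Exons with few skipping reads, such as those of Celf4 and Khdrbs1, are limited by depth.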

Other observations

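Celf1 also has alternative 3′ exons that no cassette exon describes, and their reads were compared after the data were seen. A 165-nt exon at chr2:90853395-90853559 (mm9, plus strand) is joined in 1 trio to a 1714-nt exon and in another to a 488-nt exon that starts further downstream. The junction to the 1714-nt exon had 165 reads in control and 49 in the knockdown. The junction to the 488-nt exon had 1344 and 774, so the reads of the nearer exon were fewer in the knockdown by the larger factor. The junction into the 165-nt exon from the 144-nt exon before it had 1671 and 959 reads. In Mbnl1, skipping from the 154-nt exon straight to a 75-nt exon, past the 36-nt and 95-nt exons, had 24 and 13 reads in 1 trio and 55 and 27 in another. Counts of 1 junction therefore differed between trios, and levels from different trios are not comparable.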
